A study of Mus musculus with 12 samples.

Results

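The Wnt ligands and their receptors were followed in whole lungs of miR-30a-/- mice. The members were every protein-coding gene of the count table whose symbol is that of a Wnt ligand or a Frizzled receptor, together with the co-receptor genes Lrp5 and Lrp6, the nuclear factor gene Lef1 and the feedback target gene Axin2. They came to 33 of 55487 genes, 19 ligands and 10 Frizzled receptors among them. RNA-Seq had been made from 12 C57BL/6J lungs, 3 in each of 4 groups of sex and exposure, and all 12 lacked miR-30a, so that controls and exposed pups shared the deletion. Exposed pups were kept in 95% oxygen on postnatal days (PND) 1 to 5, their controls stayed in room air throughout, and lungs were taken on PND 21. The study removed the whole miR-30a gene by CRISPR/Cas9 editing, in every cell rather than in 1 cell type, and pups of several litters were pooled and then shared out by sex. Wild-type lungs were not analysed here.

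Wnt proteins are secreted, lipid-modified signals that bind a Frizzled receptor and, in the canonical branch, the co-receptors LRP5 or LRP6. Binding halts the breakdown of beta-catenin, which then acts with TCF and LEF proteins on target genes. Axin2 is such a target and feeds back on the pathway. In the lung the pathway is known for its part in the outgrowth of the lung bud, in the growth of vessels and in the upkeep of alveolar type 2 cells.

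The libraries held 8763033 to 16741694 counted reads. A gene with 3 counts, taken as the floor, stood at 0.179 to 0.342 CPM, the count scaled to the size of its library, and every member was far above it. The floor takes account of counting error alone, as reads carried no molecular identifier that the sources name. One library, room air male 1, held 1717 CPM on 8 skeletal muscle markers, against 76.3 to 116 CPM in the other 11. The defining markers of alveolar type 2, alveolar type 1, endothelial and fibroblast cells were all detected in at least 1 lung of each group. Genes were called when the adjusted p was under 0.05 and the fold change exceeded 1.5 in edgeR's quasi-likelihood test. Of 45828 genes tested, hyperoxia against room air gave 19 calls over the 12 lungs, 0 in males and 1 in females. At an unadjusted p under 0.05 there were 2382, 1237 and 5775 genes in that order.

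Of the Frizzled receptor genes, Fzd4, Fzd1, Fzd7, Fzd6 and Fzd2 stood at higher levels than any ligand gene, while Fzd3, Fzd9 and Fzd10 were among the lowest members. Levels of different genes are compared here per length, as counts per kilobase of exon on the CPM scale (RPKM), with SD over 12 lungs, and coordinates are those of GRCm38. Fzd4, a receptor of vessel cells that also binds norrin, was the highest member at 18.1 ± 4.64 RPKM (ENSMUSG00000049791, chromosome 7, 89404355 to 89413134). The co-receptor gene Lrp5 followed at 12.96 ± 1.95 RPKM (ENSMUSG00000024913, chromosome 19, 3584828 to 3686564), and the ranges of mean ± SD of the pair overlapped. Fzd1 at 11.9 ± 3.04 RPKM, Fzd7 at 11.3 ± 2.38 RPKM and Lrp6 at 10.8 ± 2.22 RPKM lay within each other's SD, and below them came Fzd6 at 9.52 ± 1.97 RPKM, Axin2 at 8.87 ± 1.26 RPKM and Fzd2 at 7.21 ± 1.23 RPKM. The highest ligands were Wnt2 at 5.99 ± 0.892 RPKM (ENSMUSG00000010797, chromosome 6, 17988940 to 18030585) and Wnt10b at 5.64 ± 0.782 RPKM. Wnt2 is a ligand of the embryonic lung mesenchyme.

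How many members stood above the background of reads depended on the genes used to gauge that background. The first gauge was 1492 olfactory and vomeronasal receptor genes, a family known mainly from sensory epithelia, and their median in each library ran from 0.725 to 1.58 RPKM. By this gauge 3 members were near background, with an expected background of at least 50% of their counts: Fzd9 (51.4%), Fzd10 (52.4%) and Wnt16 (70.2%). Another 9 members, the 8 genes from Fzd4 to Fzd2 and Wnt2 (19.5%), had a background share under 20%. The receptor genes were poorer in G and C than the members, with a median GC content of 39.0% against 55.4%. A second gauge was therefore added after the values were seen: 61 genes known from brain, eye, pancreas, pituitary, liver, gut, germ cells, muscle precursors or embryo, such as Pdx1, Ins1 and Olig2, with a median GC content of 55.7%. These 61 genes had a median of 2.81 RPKM and ran from 0.795 to 6.16 RPKM.

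Against these 61 genes, 8 members exceeded every one: Fzd4, Lrp5, Fzd1, Fzd7, Lrp6, Fzd6, Axin2 and Fzd2. No ligand did. Wnt2 and Wnt10b exceeded 60 of the 61, as did Fzd5, Wnt3a, Wnt2b and Wnt5a. With their median as the background, 23 members were near background, 17 of the 19 ligands and 5 of the 10 Frizzled receptors among them. Wnt2 had a background share of 44.5% and Wnt10b of 47.3%, while Wnt5a had 55.9% and Wnt3 86.1%. The neural ligand genes Wnt1 (3.86 ± 0.559 RPKM) and Wnt8b (3.47 ± 0.35 RPKM) and the early embryonic ligand gene Wnt8a (4.14 ± 0.858 RPKM) were in the same range as Wnt4 (4.25 ± 0.626 RPKM), Wnt11 (4.16 ± 0.268 RPKM) and Wnt7b (3.55 ± 0.381 RPKM), which are known from lung mesenchyme or epithelium. Whether reads on a ligand of this range were transcripts of that gene was not tested.

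**Figure D1:**
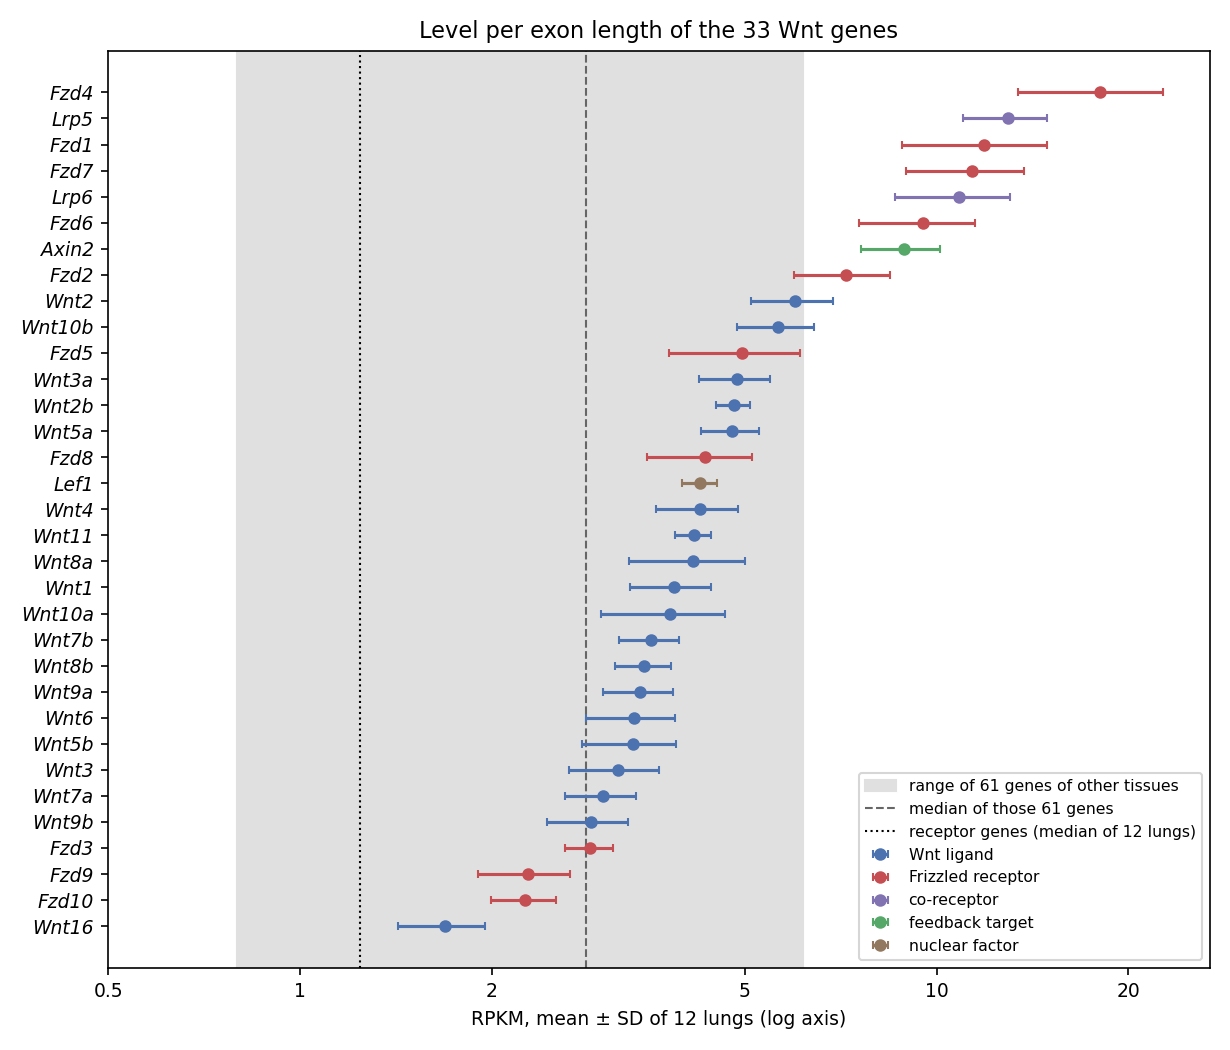
Mean level of each of the 33 genes in RPKM (log axis), with SD over 12 lungs, coloured by role; the grey band spans the 61 genes of other tissues, the dashed line is their median and the dotted line is the median receptor gene level over the 12 libraries. The 8 genes from Fzd4 to Fzd2 have means to the right of the band, and the means of all 19 ligands lie within it.

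After hyperoxia, 0 of the 33 members were called over the 12 lungs, beside 0.0415% of all genes tested. The same held in males, beside 0% of all genes, and in females, beside 0.00218%. All 33 had passed the filter on low counts. Of the members, 17 had a higher and 16 a lower estimate over the 12 lungs, with a median log2 fold change of 0.0050 against 0.031 over all genes. The 10 Frizzled receptors had 2 higher and 8 lower estimates with a median of −0.11, and the 19 ligands 13 higher and 6 lower with a median of 0.065. The 95% intervals of all 33 members lay between −0.61 and 0.55, so that a change of 1.5-fold was outside the interval of every member except Fzd5. At an unadjusted p under 0.05 there were 2 members over the 12 lungs, Fzd5 and Fzd2, both lower, beside 5.2% of all genes. There were 0 in males, beside 2.7%, and 4 in females, 2 higher and 2 lower, beside 12.6%. DESeq2 also called 0 members in each of these comparisons. The labels give each lung a sex letter with a number, and the tests rest on the spread between the 3 lungs of each group.

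**Figure D2:**
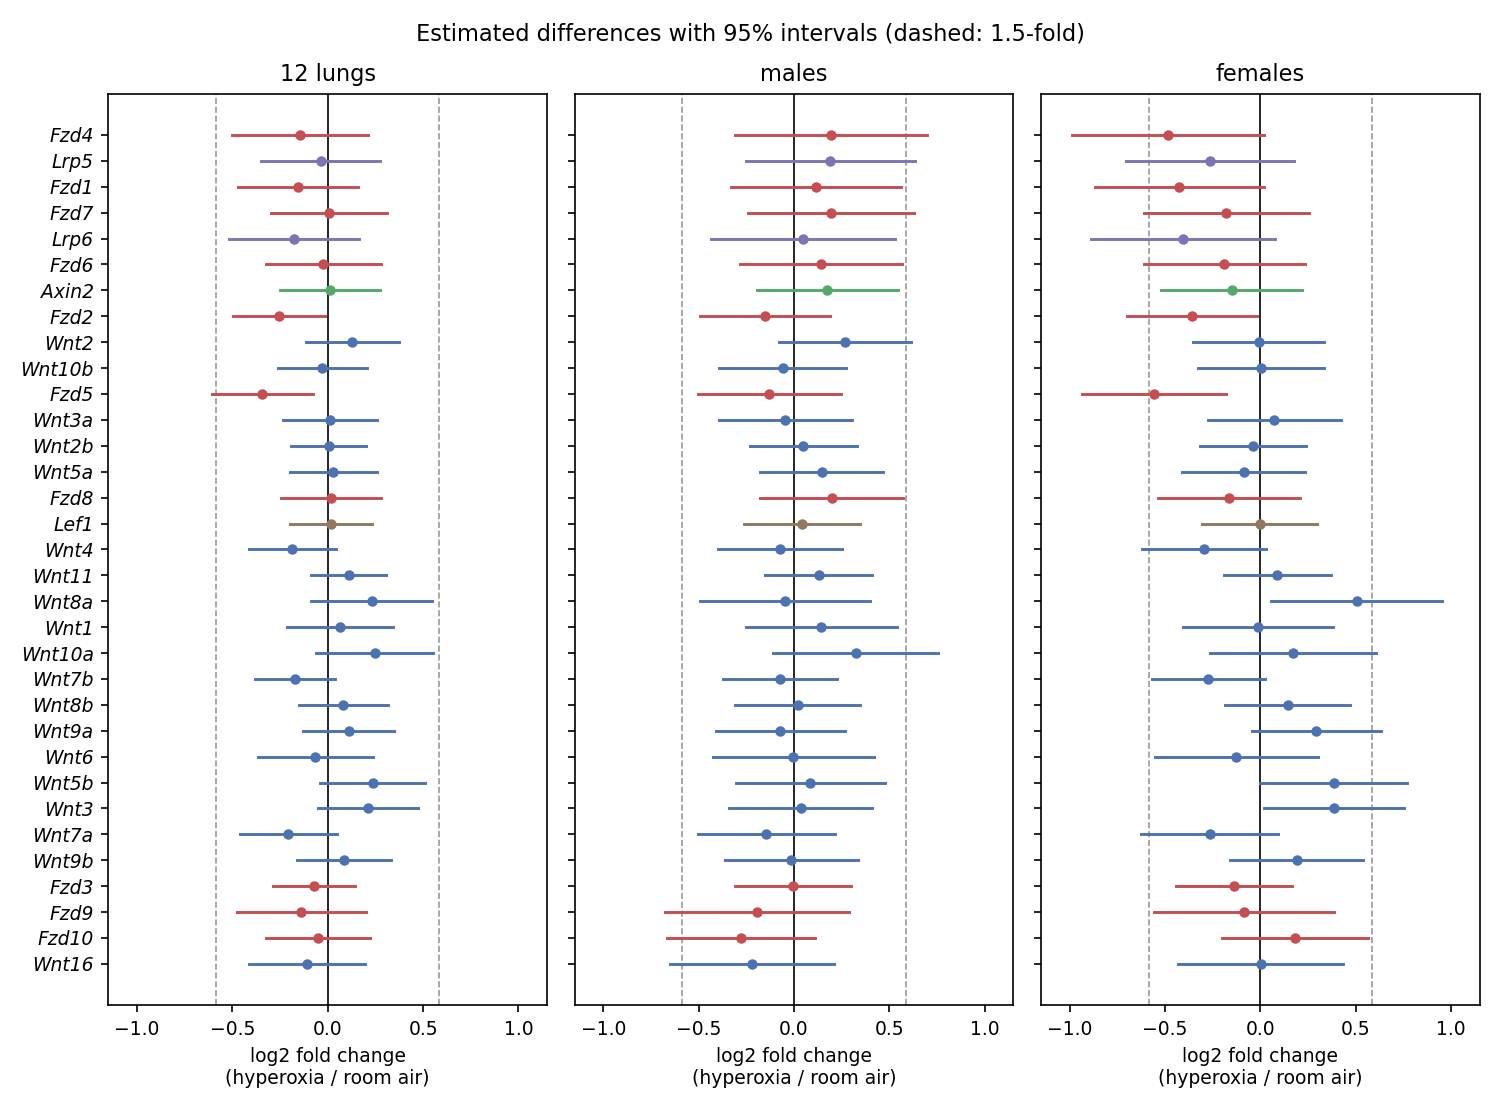
Log2 fold change of hyperoxia against room air for each of the 33 genes, ordered by level, with 95% intervals, over 12 lungs, in males and in females; dashed lines mark 1.5-fold and colours are those of the roles in the plot of levels. Over the 12 lungs the points lie between −0.34 and 0.25, and in females the 8 genes at the top all lie to the left of 0.

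Fzd4 was lower in all 3 hyperoxia-exposed females than in any room air female, and not so in males. Its values were 81.4, 130.2 and 105 CPM in room air males, 143, 77.1 and 142 CPM in hyperoxia-exposed males, 145, 191 and 118 CPM in room air females and 112, 105 and 108 CPM in hyperoxia-exposed females. The groups overlapped in males and over the 12 lungs. In such bulk samples, fewer cells of a type and less RNA per cell cannot be told apart. In females 6.42% of all genes lay wholly lower and 10.8% wholly higher after hyperoxia. The log2 fold change of Fzd4 was −0.48 (SE 0.246, adjusted p = 0.406) in females, 0.19 (SE 0.246) in males and −0.14 (SE 0.173) over the 12 lungs. Without room air female 5, the highest lung, the female value was −0.28. The difference between the sexes, −0.68 (SE 0.347), had an adjusted p of 0.578 by edgeR's quasi-likelihood test, beside 0% of all genes called for that difference. With 1 factor of unwanted variation from RUVr, estimated from the model residuals, it was called for 1 member, Fzd4, at −0.63 (adjusted p = 0.00427 by edgeR), beside 4.59% of all genes. With the share of counts on receptor genes as a covariate, the value of Fzd4 was −0.0070 in females and 0.037 over the 12 lungs.

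Fzd5, a receptor of epithelial and vessel development, had the smallest p of the members for hyperoxia over the 12 lungs and in females. With the median of the 61 genes of other tissues as the background, its share was 52.9%, which is near background. It stood at 27.3, 39.04 and 34.1 CPM in room air males, 35.4, 25.5 and 30.7 CPM in hyperoxia-exposed males, 49.7, 46.9 and 33.6 CPM in room air females and 34.3, 31.4 and 22.9 CPM in hyperoxia-exposed females. Both of the highest lungs were room air females, and the groups overlapped in each sex. Its log2 fold change was −0.34 (SE 0.13, adjusted p = 0.927) over the 12 lungs and −0.56 (SE 0.183, adjusted p = 0.339) in females by the edgeR fit. On the reverse strand, 17.8% of its exon bases are shared with the gene model Gm38058, and since the strand setting of the counting is not given, reads there cannot be told apart.

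Fzd1, Fzd2 and Fzd7 encode closely related receptors of canonical and other Wnt signals. Fzd1 stood at 38.6, 51.04 and 42.2 CPM in room air males, 64.98, 32.8 and 44.5 CPM in hyperoxia-exposed males, 65.8, 74.5 and 44.95 CPM in room air females and 54.7, 39.3 and 44.1 CPM in hyperoxia-exposed females. Fzd2 had a lowest, median and highest value of 25.4, 27.6 and 33.6 CPM in room air and 19.9, 22.5 and 32.7 CPM after hyperoxia. Its log2 fold change was −0.26 (SE 0.118, adjusted p = 0.927) over the 12 lungs by edgeR, and 2 of the 3 lowest lungs were hyperoxia-exposed males. Fzd7 had 38.5, 49.6 and 67.4 CPM in room air and 36.5, 49.4 and 66.97 CPM after hyperoxia, with a log2 fold change of 0.0069 (SE 0.149). The exposures overlapped for all 3 genes. How the authors treated reads that map to more than 1 of such paralogues is not given in the sources used here.

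Fzd6, Fzd8 and Fzd3 were also compared. Fzd6, known for planar cell polarity, had a lowest, median and highest value of 35.5, 45.7 and 56.9 CPM in room air and 36.1, 41.2 and 64.8 CPM after hyperoxia and a log2 fold change of −0.023 (SE 0.146). Fzd8 had 18.7, 25.4 and 33.3 CPM in room air and 18.4, 25.8 and 32.9 CPM after hyperoxia and 0.017 (SE 0.129). Fzd3, like Fzd6 a planar polarity receptor, had 34.3, 36.1 and 45.5 CPM in room air and 33.2, 35.8 and 38.1 CPM after hyperoxia and −0.071 (SE 0.105). In each of these genes the exposures overlapped, and the difference was smaller than the spread between lungs. Fzd3 and Fzd8 lie in the range of the 61 genes of other tissues. The near-background receptors Fzd9 and Fzd10 ranged between 4.26 and 6.91 CPM and between 6.17 and 9.05 CPM over the 12 lungs.

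The co-receptor and feedback genes did not pass the test. Lrp6 stood at 117, 158 and 137 CPM in room air males, 176, 103 and 146 CPM in hyperoxia-exposed males, 189, 205 and 142 CPM in room air females and 157, 122 and 125 CPM in hyperoxia-exposed females, and its log2 fold change was −0.18 (SE 0.166) over the 12 lungs and −0.41 (SE 0.235) in females. Lrp5 had a lowest, median and highest value of 107, 126 and 149 CPM in room air and 102, 121 and 162 CPM after hyperoxia, with −0.036 (SE 0.152). Axin2, which is commonly read as a measure of canonical signalling, stood at 41.5, 51.8 and 43.8 CPM in room air males, 59.3, 41.1 and 53.9 CPM in hyperoxia-exposed males, 53.8, 57.6 and 43.8 CPM in room air females and 54.6, 44.6 and 40.6 CPM in hyperoxia-exposed females. Its lungs overlapped between the exposures in both sexes, and its log2 fold change of 0.012 (SE 0.127) had a 95% interval from −0.25 to 0.27. Lef1, a factor of T cells as well as of Wnt signalling, varied least among these genes at 34.9, 37.7 and 38.99 CPM in room air and 33.8, 37.1 and 41.9 CPM after hyperoxia, with 0.019 (SE 0.105). The summed CPM of 8 T cell markers was likewise narrow, from 103 to 125 CPM, and its part in the Lef1 values was not tested. Lef1 was near background against the median of the 61 genes of other tissues, with a share of 62.8%.

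**Figure D3:**
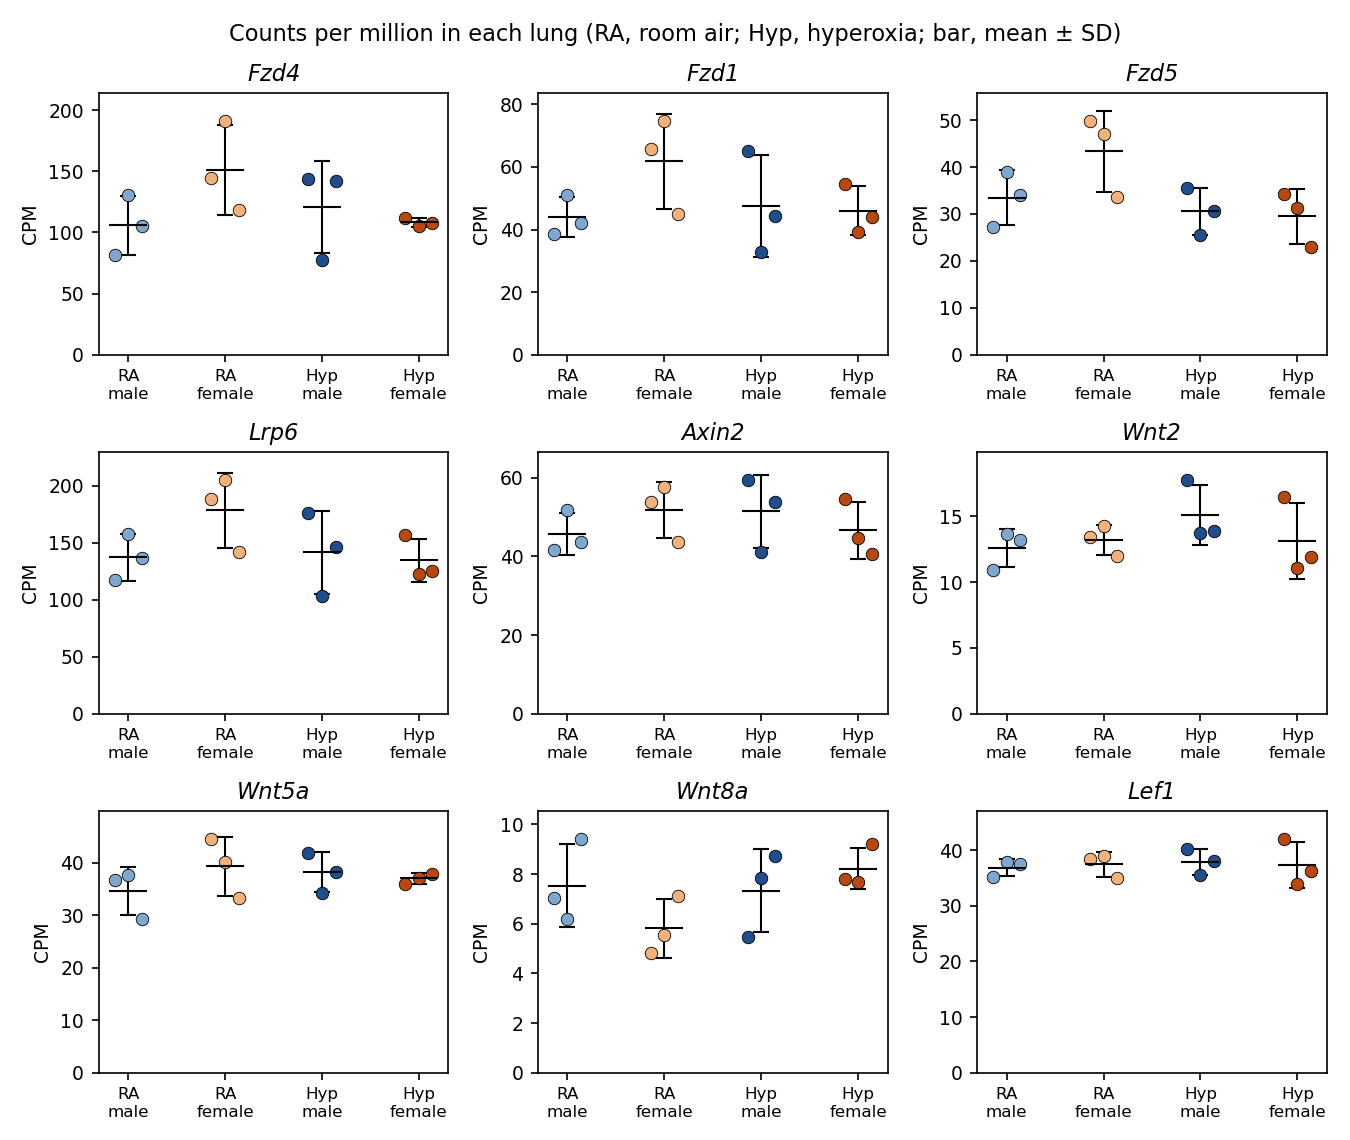
CPM of 9 members in each of the 12 lungs by sex and exposure, with mean and SD of 3 lungs; all axes start at 0. The exposures overlap in both sexes for Fzd1, Fzd5, Lrp6, Axin2, Wnt5a and Lef1, while Fzd4 lies lower and Wnt8a higher in all hyperoxia-exposed females, and Wnt2 higher in all hyperoxia-exposed males.

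Among the ligands, Wnt2 was higher in all 3 hyperoxia-exposed males than in any room air male, and not so in females. Its values were 10.96, 13.7 and 13.2 CPM in room air males, 17.7, 13.7 and 13.9 CPM in hyperoxia-exposed males, 13.4, 14.2 and 12.01 CPM in room air females and 16.4, 11.05 and 11.9 CPM in hyperoxia-exposed females. In males the margin was small, since the highest room air male and the lowest exposed male differed by less than the SD of either group, and 2.73% of all genes lay wholly higher and 3.89% wholly lower. Wnt2 was 1 of 33 members with this order, and the difference between the sexes of −0.27 (SE 0.238, adjusted p = 0.638) did not pass by edgeR. The log2 fold change of Wnt2 was 0.27 (SE 0.168) in males, −0.0082 (SE 0.168) in females and 0.13 (SE 0.119, adjusted p = 0.927) over the 12 lungs by edgeR. Wnt5a, a noncanonical ligand of lung mesenchyme, stood at 36.7, 37.7 and 29.3 CPM in room air males, 41.9, 34.3 and 38.3 CPM in hyperoxia-exposed males, 44.4, 40.1 and 33.3 CPM in room air females and 35.9, 37.2 and 37.9 CPM in hyperoxia-exposed females. Its exposures overlapped, with a log2 fold change of 0.028 (SE 0.112).

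Wnt8a and Wnt9a were higher in all 3 hyperoxia-exposed females than in any room air female. Wnt8a stood at 7.06, 6.17 and 9.39 CPM in room air males, 5.46, 7.84 and 8.71 CPM in hyperoxia-exposed males, 4.81, 5.53 and 7.11 CPM in room air females and 7.78, 7.69 and 9.19 CPM in hyperoxia-exposed females, and its log2 fold change was 0.51 (SE 0.218, adjusted p = 0.372) in females by edgeR. Wnt9a stood at 9.8, 13.3 and 12.7 CPM in room air males, 12.2, 9.91 and 11.8 CPM in hyperoxia-exposed males, 9.95, 9.86 and 10.3 CPM in room air females and 13.99, 11.2 and 11.7 CPM in hyperoxia-exposed females, with 0.29 (SE 0.165, adjusted p = 0.427) in females by edgeR. Their differences between the sexes, 0.55 (SE 0.308, adjusted p = 0.578) and 0.36 (SE 0.233, adjusted p = 0.581), did not pass. These were 2 of 33 members, beside 10.8% of all genes wholly higher in females. Both lay within the range of the genes of other tissues, and 51 of those 61 genes also had a higher estimate in females, with a median log2 fold change of 0.21. Of the 1417 receptor genes tested, 1362 had a higher estimate in females, with a median of 0.45. Wnt3 at 0.39 (SE 0.179, adjusted p = 0.386) and Wnt5b at 0.38 (SE 0.189, adjusted p = 0.399) had female estimates between those of Wnt8a and Wnt9a. The other ligands gave log2 fold changes over the 12 lungs from −0.21 for Wnt7a to 0.25 for Wnt10a, and the exposures overlapped for each.

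Further ligands are given over the 12 lungs by their exposures. Wnt10b had a lowest, median and highest value of 16.2, 19.02 and 23.05 CPM in room air and 15.9, 17.99 and 24.5 CPM after hyperoxia. Wnt4, a ligand of epithelia and vessel smooth muscle, had 16.7, 18.8 and 21.7 CPM in room air and 14.9, 15.7 and 22.005 CPM after hyperoxia, and Wnt7b, a ligand of lung epithelium, had 16.8, 18.7 and 19.7 CPM in room air and 13.8, 16.2 and 18.9 CPM after hyperoxia. For Wnt4 the log2 fold change was −0.18 (SE 0.112) and for Wnt7b −0.17 (SE 0.102), both with overlapping exposures. Wnt2b, the closest relative of Wnt2, had 18.6, 19.8 and 21.8 CPM in room air and 18.05, 20.5 and 21.5 CPM after hyperoxia. Wnt11 had 15.6, 16.3 and 17.7 CPM in room air and 16.6, 17.7 and 19.6 CPM after hyperoxia and Wnt3a 10.2, 14.1 and 15.3 CPM in room air and 12.2, 12.98 and 15.4 CPM after hyperoxia. The exposures overlapped for all 3, and their log2 fold changes were 0.0050 (SE 0.0963), 0.11 (SE 0.0964) and 0.013 (SE 0.12) in that order.

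Of the other ligands, Wnt3 had a lowest, median and highest value of 7.18, 9.01 and 10.5 CPM in room air and 8.27, 10.2 and 12.4 CPM after hyperoxia, and Wnt5b had 6.81, 8.16 and 9.3 CPM in room air and 7.99, 9.16 and 12.5 CPM after hyperoxia. Both are known from developing limb and other epithelia or mesenchyme, and their log2 fold changes over the 12 lungs were 0.21 (SE 0.128) and 0.23 (SE 0.134). Wnt10a had 6.55, 7.68 and 11.3 CPM in room air and 8.16, 10.01 and 13.4 CPM after hyperoxia, with 0.25 (SE 0.15), and Wnt6, its neighbour on chromosome 1, had 6.35, 7.37 and 9.39 CPM in room air and 5.42, 7.03 and 9.25 CPM after hyperoxia, with −0.065 (SE 0.147). Wnt7a had 8.59, 10.4 and 11.7 CPM in room air and 7.52, 8.9 and 9.91 CPM after hyperoxia, with −0.21 (SE 0.124). None of these passed the test, and the exposures overlapped for each. Wnt9b, a kidney ligand, had 10.02, 12.2 and 16.2 CPM in room air and 11.7, 12.7 and 15.7 CPM after hyperoxia, with 0.087 (SE 0.12). The neural ligand genes Wnt1 and Wnt8b had 6.95, 9.15 and 10.5 CPM in room air and 7.83, 9.46 and 11.1 CPM after hyperoxia and 10.2, 11.6 and 13.4 CPM in room air and 11.4, 11.9 and 13.9 CPM after hyperoxia, with 0.065 (SE 0.136) and 0.081 (SE 0.113). These too overlapped. Wnt16, the member nearest to background, was between 5.1 and 8.72 CPM.

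No member was called between females and males, beside 1.22% of all genes, and none had sexes that did not overlap, beside 1.2% of all genes. Nor did the exposures stand wholly apart over the 12 lungs for any member, beside 0.214% of all genes. In females all 8 members above the genes of other tissues had a lower estimate after hyperoxia, with a median log2 fold change of −0.31, while the other 25 had 12 higher and 13 lower estimates and a median of −0.0043. In males the 8 had 7 higher and 1 lower estimates and a median of 0.16. The difference between the sexes was lower than 0 for all 8, and 0 of them passed edgeR's test of it without added factors. Over all genes the median was 0.11 in females and −0.011 in males. Summed markers of several cell types also ran lower in hyperoxia-exposed than in room air females. The smooth muscle markers did so without overlap, at 295 to 361 CPM in room air and 261 to 293 CPM after hyperoxia. So did the atrial muscle markers, at 240 to 269 and 127 to 159 CPM. The T cell markers did not run lower, at 112 to 120 and 112 to 125 CPM. Nor did the skeletal muscle markers, at 76.3 to 104.1 and 102.9 to 107.5 CPM. The lists that follow ran lower with overlap. The 8 alveolar type 2 markers summed to 6327 to 12188 CPM in room air and 5946 to 7748 CPM after hyperoxia, the alveolar type 1 markers to 2135 to 3221 and 1851 to 2365 CPM, and the capillary endothelial markers to 1575 to 2391 and 1391 to 1811 CPM. Their part in the values of the 8 members was not tested.

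The levels of these 8 members were also set beside the share of each library's counts that fell on receptor genes. This share was 0.410% in room air female 5, 0.516% in hyperoxia-exposed male 1 and 0.517% in room air female 2, the lowest libraries. It was 0.849% in hyperoxia-exposed female 5, 0.901% in room air male 1 and 0.947% in hyperoxia-exposed male 2, the highest. All 8 members had higher CPM in each of the 3 low-share lungs than in any of the 3 high-share lungs, whatever the exposure; this split of the lungs was chosen after the data were seen. The 6 lungs between did not all follow the order. Fzd2 was lowest in hyperoxia-exposed male 3 (19.9 CPM) and Fzd6 in room air female 6 (35.5 CPM), while Fzd4 in hyperoxia-exposed male 3 (142 CPM) was close to the low-share lungs. Over all genes tested, 19.1% had this order and 29.1% the opposite order. Of the other 25 members, 6 had the same order, 5 ligands (Wnt3, Wnt5b, Wnt8a, Wnt8b and Wnt9b) had the opposite order and 14 overlapped. For Fzd4 the low-share lungs held 143 to 191 CPM and the high-share lungs 77.1 to 108 CPM. The summed markers of several cell types had the same order as the 8 members. For alveolar type 2 cells the sum over 8 genes was 10371 to 12188 CPM in the low-share lungs and 4945 to 6287 CPM in the high-share lungs, and for alveolar type 1 cells 2976 to 3221 against 1429 to 1918 CPM. For capillary endothelium it was 2164 to 2391 against 1131 to 1438 CPM, and for fibroblasts 1991 to 2273 against 1148 to 1416 CPM. The skeletal muscle markers had the opposite order, at 76.3 to 91.9 against 107.5 to 1717 CPM. The T cell, smooth muscle, atrial muscle and alveolar macrophage markers overlapped. The part of the share and of these markers in the results was not tested. In females the share was 0.410, 0.517 and 0.740% in room air and 0.670, 0.782 and 0.849% after hyperoxia. The fits that follow therefore cannot fully separate the share from the exposure.

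**Figure D4:**
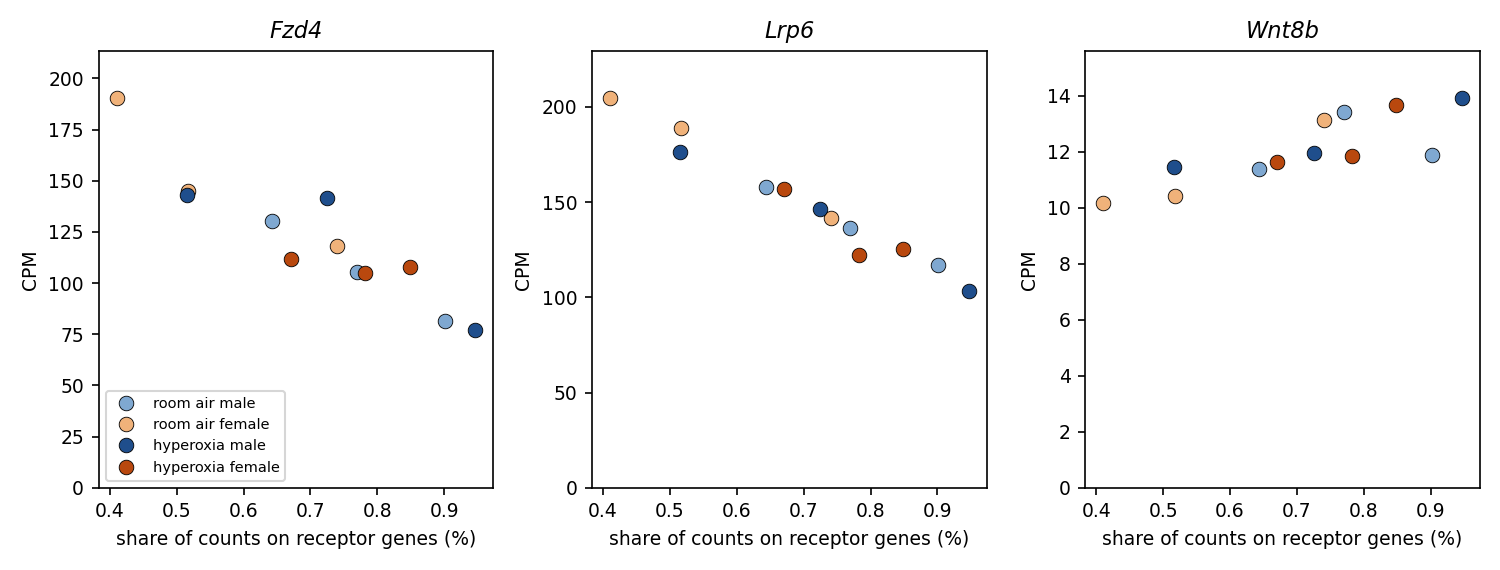
CPM of Fzd4, Lrp6 and Wnt8b against the percent of counts on receptor genes in each of the 12 lungs, coloured by sex and exposure; the y axes start at 0. Fzd4 and Lrp6 are highest in room air female 5, the library with the lowest share (0.410%), and lowest in hyperoxia-exposed male 2, that with the highest (0.947%), whereas Wnt8b is lowest in the first and highest in the second.

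With the log2 receptor share as a covariate, the female log2 fold change of Fzd5 was −0.21 (adjusted p = 0.94 by edgeR). In that fit 0 members were called, and 8 of 33 had an unadjusted p under 0.05 over the 12 lungs, 4 higher and 4 lower, beside 7.36% of all genes. In females there were 7, 5 higher and 2 lower, beside 5.51% of all genes. Fzd6 and Fzd7, which had lower estimates in females without the covariate, were among those higher, at 0.29 and 0.30. With 1 factor of unwanted variation from RUVr, 7 members had an adjusted p under 0.05 in females, Fzd5 (−0.55, adjusted p = 1.7e-05) and Fzd4 (−0.45, adjusted p = 0.00223) among them, all with a fold change under 1.5, beside 16.7% of all genes.

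The deleted microRNA and its relatives are shown to place the members beside the site they would pair with. The mature sequences are RefSeq's (GRCm38.p6), 5′ to 3′, with the seed, bases 2 to 8, in capitals. Of the miR-30 family, miR-30b and miR-30d are named here without a sequence.
miR-30a-5p: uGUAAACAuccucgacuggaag
miR-30c-5p: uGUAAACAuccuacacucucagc
miR-30e-5p: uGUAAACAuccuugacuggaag
All 3 share the seed GUAAACA, whose complement in a transcript is TGTTTAC. In the longest annotated 3′UTR of each gene (GENCODE M21, GRCm38), read on the gene's own strand, 7 of 33 members held this 7-letter match, or 21.2%, beside 13.8% of 21037 protein-coding genes. The members' 3′UTRs were longer, with a median of 1813 bases against 960. The matches of 6 of these genes are printed to show their surroundings, with 11 bases on each side and the match in capitals.
Fzd2 (chr11:102607725-102607731, + strand): gtggggttgagTGTTTACgtgacattcta
Fzd7 (chr1:59486880-59486886, + strand): gatttttgtttTGTTTACctttaaagatc
Lrp6 (chr6:134448784-134448790, − strand): agaattctttaTGTTTACattttcaatgt
Wnt5a (chr14:28527196-28527202, + strand): acatggattaaTGTTTACacttacagctg
Fzd3 (chr14:65192581-65192587, − strand): tagatttatttTGTTTACagtagactgat
Wnt9b (chr11:103728575-103728581, − strand): ggggggttgtgTGTTTACccagaagcctc
Fzd8 held 1 match as well. Fzd4, Fzd1, Fzd5, Axin2 and Lef1 held none. The 7 genes with a match had log2 fold changes after hyperoxia from −0.26 for Fzd2 to 0.087 for Wnt9b over the 12 lungs. A match is a stretch of letters, and its use in these lungs was not measured.

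The rest of the pathway was counted from 71 genes in 9 lists, and 0 of 71 were called over the 12 lungs, in males, in females or between the sexes by edgeR. At an unadjusted p under 0.05 there was 1 gene over the 12 lungs, Ccnd1, beside 5.2% of all genes. In males there were 2, Ccnd1 and the muscle receptor gene Musk, both lower, beside 2.7% of all genes. Room air male 1, the library with the high skeletal muscle markers, was in that comparison, and its part in the Musk value was not tested. In females there were 6, with Dkk1 higher and Ccnd1, Gsk3a, Pygo2, Tnks2 and Ctnnb1 lower, beside 12.6% of all genes. These genes are named after their values were seen. The 71 genes' median log2 fold change was −0.070 over the 12 lungs and −0.16 in females. Porcn and Wls, the pair that lipidates and exports Wnt proteins, stood at 7.32 RPKM and 11.3 RPKM, and their log2 fold changes were −0.14 (SE 0.109) and −0.22 (SE 0.165). Porcn, an X-linked gene, was higher in females than in males at 0.53 (SE 0.109, adjusted p = 0.00602) by edgeR, a fold change under 1.5. Its values were 19.5, 20.5 and 15.5 CPM in room air males, 20.97, 15.9 and 15.4 CPM in hyperoxia-exposed males, 29.7, 29.2 and 24.3 CPM in room air females and 23.1, 23.2 and 26.3 CPM in hyperoxia-exposed females, so that every female exceeded every male, as for 0.886% of all genes.

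Of 7 potentiator genes, Rspo1 (6.41 RPKM) and Rspo4 (4.56 RPKM) were highest and 3 were near the receptor gene background, Rspo2, Rspo3 and the stem cell receptor gene Lgr5. Against the genes of other tissues 6 of the 7 were near background, Rspo4 included. Of 17 secreted inhibitors, 4 were near background by the receptor genes and 14 by the genes of other tissues, and Dkk3 (12.9 RPKM) and the receptor-clearing gene Kremen1 (6.77 RPKM) were highest. The ubiquitin ligase genes Znrf3 (7.47 RPKM) and Rnf43 (5.51 RPKM), which remove Frizzled receptors from the surface, had log2 fold changes of −0.14 (SE 0.147) and −0.072 (SE 0.106). The other receptor genes Ptk7 (17.2 RPKM) and Ryk (13.95 RPKM) led a list of 5. Prickle1 (22.3 RPKM) and Prickle2 (14.6 RPKM) led 7 planar polarity genes. None of these lists held a called gene.

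Within the cell, Ctnnb1, which encodes beta-catenin, was the highest of 15 cytoplasmic genes at 63.6 RPKM, followed by the kinase gene Csnk1a1 at 20.1 RPKM. Ctnnb1 stood at 272, 362 and 288 CPM in room air males, 433, 211 and 298 CPM in hyperoxia-exposed males, 451, 517 and 294 CPM in room air females and 315, 270.4 and 251 CPM in hyperoxia-exposed females. The exposures overlapped in males, and in females 1 exposed lung exceeded the lowest room air lung. Its log2 fold change was −0.28 (SE 0.202, adjusted p = 0.927) over the 12 lungs, −0.59 (SE 0.286, adjusted p = 0.393) in females and 0.031 (SE 0.285) in males by edgeR. Tcf7 (19.2 RPKM) and Bcl9l (18.6 RPKM) led 10 nuclear genes, with 0.025 (SE 0.131) and −0.13 (SE 0.17). Of 6 target genes, Nkd1 (19.9 RPKM) and Tnfrsf19 (13.5 RPKM) were highest, with −0.10 (SE 0.156) and −0.12 (SE 0.147). Ccnd1, which encodes cyclin D1 of the cell cycle and answers to many pathways, was named after its values were seen, because it had the smallest p of the 71 genes for hyperoxia over the 12 lungs. It stood at 46.5, 60.3 and 43.4 CPM in room air males, 42.8, 27.9 and 33.1 CPM in hyperoxia-exposed males, 81.3, 77.7 and 51.7 CPM in room air females and 42.3, 42.01 and 44.8 CPM in hyperoxia-exposed females. Every exposed lung was below every room air lung within each sex, as for 0.242% of all genes, and the log2 fold change was −0.62 (SE 0.137, adjusted p = 0.133) over the 12 lungs by edgeR, which did not pass.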

How the data were processed

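Whole-lung RNA of 12 miR-30a-/- mice was sequenced. Trim Galore, STAR (genome mm10, GRCm38) and featureCounts were the authors' tools for trimming, mapping and counting, and the deposited table holds raw counts per gene. Versions, strand and multi-mapping settings are not given in the sources used here. The labels and the study's methods name different rRNA-depleting stranded library kits. Each of 12 columns was 1 lung, and totals ran from 8763033 to 16741694 counts.

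Counts were fitted with edgeR 4.0.16 in R 4.3.3 (upper-quartile scaling, filterByExpr, robust quasi-likelihood, 1 mean for each of 4 groups), and p-values were adjusted by Benjamini-Hochberg over 45828 genes. A call needed a fold change above 1.5 as well as an adjusted p below 0.05. Confidence intervals of log2 fold changes are at 95%. CPM used effective library sizes, and RPKM used exon lengths of GENCODE M21, which matched 55227 of 55487 genes. The background share set the median receptor gene density times exon length against a gene's counts. Values are named for every member. Members and gene lists were chosen with earlier results of these data known. Alternatives were TMM, DESeq2 1.42.0, other filters, RUVr factors rebuilt from model residuals and background subtraction. Others were the receptor share as a covariate, the number after the sex letter as a block and leaving out each lung. The edgeR fit without added factors was tested on simulated data, and the alternatives were not. The study's joint correction with wild-type data was not used here, and the number of RUVr factors it used is not given.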

Additional observations from a re-analysis of the deposited data

Results flagged for a closer look

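A value stood apart from the other 5 lungs of its exposure in 2 of 60 groups of 6 lungs examined by Dixon's ratio. Wnt4 was at 22.005 CPM in hyperoxia-exposed male 1, the highest of the 6 exposed lungs, whose median was 15.7 CPM. Fzd3 was at 45.5 CPM in room air female 5, the highest of the 6 room air lungs, whose median was 36.1 CPM. Both libraries were among the 3 with the lowest share of counts on receptor genes, and chance alone would mark about 1 in 20 groups.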

How the results depend on the processing

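Genes called over 12 lungs, in males, in females, for the difference between the sexes and between females and males numbered 19, 0, 1, 0 and 559. They numbered 20, 0, 0, 0 and 706 with TMM; 40, 0, 89, 0 and 791 with DESeq2; 24, 0, 8, 0 and 1004 with no filter; 18, 0, 1, 0 and 266 with at least 10 counts in every library; 92, 16, 1898, 2102 and 1006 with 1 RUVr factor; 118, 71, 1945, 2223 and 1044 with 2 RUVr factors; 10, 0, 0, 0 and 448 with background subtracted; 18, 6, 22, 0 and 977 with the receptor share as covariate. Leaving out each lung in turn gave 3 to 37, 0 to 1, 0 to 206, 0 to 0 and 476 to 687. Over the 12 lungs the count was 37 without hyperoxia-exposed male 1, 32 without room air female 6, 10 without hyperoxia-exposed female 2, 6 without room air male 5, 4 without room air female 2 and 3 without hyperoxia-exposed female 5. In females it was 8 without room air male 1, 5 without room air male 4, 2 without room air female 5, 206 without room air female 6, 20 without hyperoxia-exposed male 1, 43 without hyperoxia-exposed male 2, 3 without hyperoxia-exposed female 2, and 0 without each of 4 other lungs. Of the members, 0 were called in each of these fits except for Fzd4 in the difference between the sexes, where 1 RUVr factor and 2 RUVr factors each gave 1 member. Members near background numbered 3 with the median or mean of the receptor genes, 1 with vomeronasal receptors alone and 23 with the genes of other tissues.

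Estimates over the 12 lungs that changed sign had p-values above the threshold throughout, and the cause was not tested. With TMM the log2 fold changes were −0.0073 for Fzd7, −0.013 for Wnt2b, −0.0057 for Wnt3a, −0.0046 for Axin2. With DESeq2 the log2 fold changes were −0.033 for Fzd7, −0.024 for Fzd8, −0.036 for Wnt2b, −0.028 for Wnt3a, −0.012 for Wnt5a, −0.028 for Axin2, −0.021 for Lef1. With no filter the log2 fold changes were −0.0083 for Fzd7, −0.011 for Wnt2b, −0.0041 for Wnt3a, −0.0043 for Axin2. With at least 10 counts in every library the log2 fold changes were 0.0073 for Fzd6, 0.00073 for Wnt10b. With background subtracted the log2 fold changes were 0.030 for Fzd6, 0.00071 for Wnt10b, 0.020 for Lrp5. With the receptor share as covariate the log2 fold changes were 0.026 for Fzd1, 0.037 for Fzd4, 0.14 for Fzd6, 0.059 for Wnt10b, 0.056 for Lrp5. Leaving out 1 lung gave ranges of −0.088 to 0.0020 for Fzd10, −0.16 to 0.063 for Fzd6, −0.10 to 0.11 for Fzd7, −0.076 to 0.12 for Fzd8, −0.019 to 0.13 for Wnt1, −0.13 to 0.033 for Wnt10b, −0.028 to 0.034 for Wnt2b, −0.062 to 0.081 for Wnt3a, −0.026 to 0.081 for Wnt5a, −0.13 to 0.021 for Wnt6, −0.12 to 0.047 for Lrp5, −0.054 to 0.082 for Axin2, −0.027 to 0.052 for Lef1. 

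With the number after the sex letter as a replicate block, genes called numbered 4, 0, 0, 0 and 130, and members called 0. The estimates that changed sign were −0.11 for Fzd7, −0.048 for Fzd8, 0.024 for Wnt10b, 0.011 for Wnt16 and −0.051 for Wnt2b. The rest were −0.019 for Wnt3a, −0.057 for Wnt5a, −0.088 for Axin2 and −0.016 for Lef1. Same-numbered lungs of 1 sex did not deviate together (r = −0.37, 0.098 and −0.22), so the numbers were not read as pairs. Of the 19 ligands, 17 were near the background of the genes of other tissues, and by the receptor genes Wnt16 alone was.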

Other observations

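Of the 19 ligand genes, 8 lay in 4 neighbouring pairs with 0 protein-coding genes between the partners (GENCODE M21, GRCm38). Wnt6 and Wnt10a were 6193 bases apart on chromosome 1, and Wnt3a and Wnt9a 16175 bases apart on chromosome 11. Wnt9b and Wnt3 were 24328 bases apart on chromosome 11, and Wnt10b and Wnt1 11706 bases apart on chromosome 15. Among the members, 7 shared exon bases with another gene model, the largest share after Fzd5 being that of Lef1 with the antisense model Gm43352 (13.7%).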
